A study of Homo sapiens with 8 samples.

Results

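The genes described here are 10 genes of the amino acid stress response run by the transcription factor ATF4, namely ATF4 itself, DDIT3, CEBPB, TRIB3, CHAC1, ASNS, PSAT1, PHGDH, SLC7A5 and SLC3A2. They were taken by symbol from tables of exon counts for 28265 genes, and all 10 were found. RNA was profiled by factory RNA-Seq, an approach that the study uses for nascent transcripts, in low-passage IMR90, a human fetal lung fibroblast line. There were 4 conditions with 2 libraries each. Control cells carried the label young, treated cells received inflachromene (ICM), a small molecule that binds HMGB1 and HMGB2, for 3 days or for 6 days, and the last condition was labelled MetaICM. The design text describes the MetaICM cells as treated low-passage IMR90, and the sources used here do not say what that treatment was or how long it lasted. All libraries come from 1 cell line, and no source says whether the 2 libraries of a condition came from separate cultures, so that p-values measure a spread that may be technical.

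ATF4 is the main effector of the integrated stress response. Kinases that sense amino acid shortage, unfolded protein, heme shortage or double-stranded RNA phosphorylate the translation factor eIF2, general translation slows, and the ATF4 mRNA is translated more, so that the amount of ATF4 protein is set to a large part after transcription. ATF4 binds DNA with partners of the C/EBP family and turns on genes for amino acid synthesis, amino acid uptake, tRNA charging and feedback on translation. In fibroblasts the pathway is also known to supply serine and glycine for collagen. RNA levels of its genes are reported below, and neither ATF4 protein nor eIF2 phosphorylation was measured in these libraries.

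ATF4 and its C/EBP partners recognise a composite element that is often written TGATGNAA, where N is any base, or TTNCATCA on the other strand. The sequences of 4 of the 10 genes that hold these letters near a start site are shown because they are the letters by which the pathway's targets are usually recognised. They are read from GRCh37 (hg19) 5′ to 3′ on the strand of the gene, the capitals mark the element, and the positions are those of its 8 letters.
DDIT3, chr12:57914596-57914603, 303 bases before the first exon: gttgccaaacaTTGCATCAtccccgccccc
CHAC1, chr15:41245460-41245467, 209 bases before the first exon: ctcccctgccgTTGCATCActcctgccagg
PHGDH, chr1:120253603-120253610, 954 bases before the first exon: cataattctcaTTGCATCActaatttgaaa
ASNS, chr7:97501781-97501788, 68 bases before a RefSeq start: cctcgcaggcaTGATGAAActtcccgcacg
The first 3 came from the 1000 bases before the first exon of the count annotation, a window in which 3 of the 10 genes held the element on either strand, against 12.7% of 27479 genes with such a window and 10.9% of the 15516 among them that were tested at 3 days. The ASNS element came from the RefSeq windows of 250 bases before to 50 bases after each start, located in GRCh37 by its sequence, and lies within an exon of ASNS in the count annotation, which also lists a start further upstream. In those windows, CHAC1, ASNS and SLC3A2 held the element, against 4.46% of 27305 genes. A match of letters is a description and was not tied to binding in any sample, and genes such as these became known as ATF4 targets in part through this element.

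The 8 libraries held between 12095123 and 23166405 counts. Correlations of log2 levels between the 2 libraries of a condition lay between 0.983 and 0.996. The unit of level is the CPM, a count divided by the TMM-scaled library total and brought to the same total in each library. Of 10 fibroblast markers, 9 were well covered and S100A4 lay below 1 CPM in all 8 libraries. The summed level of the 10 markers moved across conditions, from 21989 to 22552 CPM in control to 12337 to 14052 CPM after 3 days of ICM, 10682 to 11011 CPM after 6 days and 19458 to 20469 CPM in MetaICM. Its part in the results below was not tested. The summed level of 9 epithelial, endothelial and blood markers was 2.10 to 6.68 CPM, most of it VWF at 1.44 to 4.89 CPM, and CD3E had no count in any library. In these bulk libraries, fewer cells of a type and less RNA per cell cannot be told apart.

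A gene was called higher or lower with an adjusted p under 0.05 from edgeR's quasi-likelihood test, adjusted over all genes tested, and an absolute log2 fold change (log2FC) over 0.6. After 3 days of ICM, 7 of the 10 genes had fallen, against 13.2% of all genes tested, and CEBPB alone had risen, against 8.85% of all genes. After 6 days, 6 of the 10 were lower than in control, against 17.2% of all genes tested, and 0 were higher, against 13.3%. With DESeq2 the same numbers were called at 6 days, and 8 of the 10 had an unadjusted edgeR p under 0.05. In MetaICM, SLC7A5 was lower than control, 1 of 10 against 8.99% of all genes tested, and CHAC1 was higher, 1 of 10 against 7.41%. The median log2FC of the 10 genes against control was −1.52 after 3 days, −1.42 after 6 days and −0.38 in MetaICM, beside medians over all genes of 0.0094, −0.0013 and −0.0011. These comparisons share the control libraries and are therefore given side by side. The 10 genes were chosen with earlier results of these data known, so that these counts may reflect the choice.

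**Figure D1:**
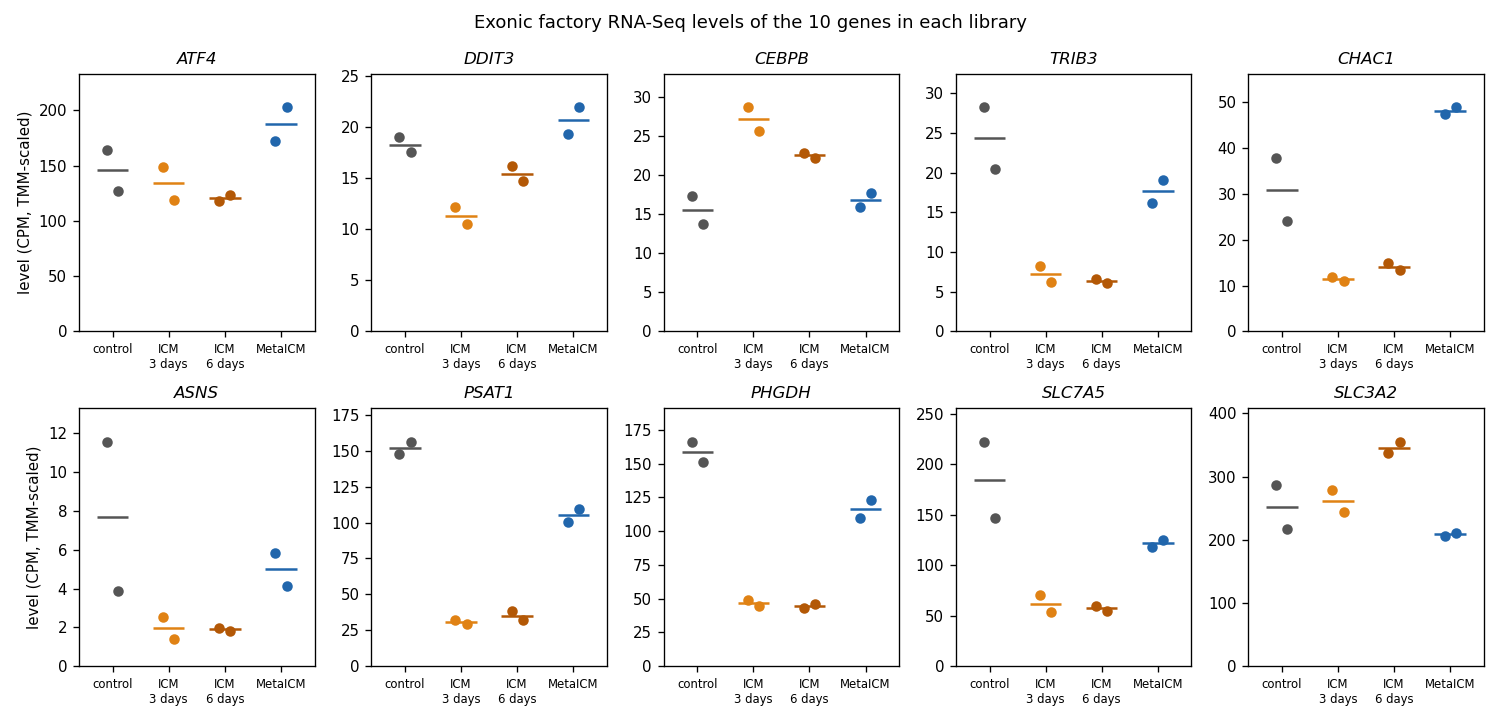
Level of each of the 10 genes in every library (points, CPM scaled by TMM factors, axis from 0) by condition, with the mean of the 2 libraries as a line. TRIB3, CHAC1, ASNS, PSAT1, PHGDH and SLC7A5 sit lower in all 4 ICM libraries than in the 2 control and 2 MetaICM libraries, while ATF4, DDIT3, CEBPB and SLC3A2 follow other courses.

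ATF4, on chromosome 22 from 39916564 to 39918691, had 164 and 127 CPM in the 2 control libraries. After ICM it had 149 and 119 CPM at 3 days and 118 and 123 CPM at 6 days. The MetaICM libraries were the highest of the 8, with 172 and 203 CPM. The 3-day libraries overlapped the control, and neither the 3-day log2FC of −0.13 (95% interval −0.46 to 0.20, edgeR adjusted p = 0.558) nor the 6-day log2FC of −0.28 (−0.57 to 0.0044, edgeR adjusted p = 0.103) passed. In MetaICM the log2FC against control was 0.35 (95% interval 0.043 to 0.65, edgeR adjusted p = 0.0846). Its control libraries differed 1.29-fold. The 3-day interval reaches no further down than −0.46, whereas 6 of the other genes fell by a log2FC of at least 1.46 at that time.

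DDIT3 encodes CHOP, a C/EBP-family factor that is induced downstream of ATF4. Its exons on chromosome 12 from 57910371 to 57914300 received 19.0 and 17.5 CPM in control, 12.1 and 10.5 CPM after 3 days, 16.2 and 14.8 CPM after 6 days, and 19.4 and 22.0 CPM in MetaICM. All 3-day libraries lay below all others. The fall at 3 days had a log2FC of −0.70 (SE 0.17, edgeR adjusted p = 0.00972), and without 3-day replicate 2 it was −0.60 with an edgeR adjusted p of 0.104, so that the call rests on that library. At 6 days the log2FC was −0.26 (edgeR adjusted p = 0.186). DDIT3 shares 65 exon bases with MARS1 on the opposite strand, which were not counted for either gene.

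CEBPB encodes C/EBPβ, a partner of ATF4 that is also an inflammatory and senescence regulator. It had 17.4 and 13.8 CPM in control and 28.7 and 25.7 CPM after 3 days, followed by 22.9 and 22.1 CPM at 6 days and 16.0 and 17.7 CPM in MetaICM. Its 4 ICM libraries were all above the 4 others. The rise at 3 days was 1.73-fold (log2FC 0.79, SE 0.17, edgeR adjusted p = 0.00388). At 6 days the log2FC of 0.51 had an edgeR adjusted p of 0.0216 and stayed under the cutoff of 0.6, which it passed without control replicate 1 (0.68). In MetaICM it was 0.09 (edgeR adjusted p = 0.694). CEBPB lies on chromosome 20 from 48807120 to 48809227, and 561 of its 2108 exon bases are shared with CEBPB-AS1 on the opposite strand and were not counted, while CEBPB-AS1 itself received 7 to 15 counts.

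TRIB3, a pseudokinase that binds ATF4 and CHOP and acts as feedback on the response, lies on chromosome 20 from 361273 to 378203. It had 28.2 and 20.4 CPM in control and fell to 8.23 and 6.25 CPM after 3 days and 6.57 and 6.11 CPM after 6 days. MetaICM libraries held 16.2 and 19.1 CPM, between the other groups and without overlap with either. The fall was 3.36-fold at 3 days (log2FC −1.75, SE 0.21, edgeR adjusted p = 5.7e-05) and 3.88-fold at 6 days (log2FC −1.96, SE 0.19, edgeR adjusted p = 2.08e-05). Against control, the MetaICM log2FC of −0.49 had an edgeR adjusted p of 0.0556.

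CHAC1 encodes an enzyme that degrades glutathione and is a sensitive target of ATF4 and CHOP. On chromosome 15 from 41245669 to 41248710, with the element shown above before its first exon, it received 37.7 and 24.1 CPM in control, 11.8 and 10.9 CPM after 3 days and 14.9 and 13.3 CPM after 6 days. In MetaICM it had 47.3 and 48.8 CPM, above every other library. CHAC1 fell 2.74-fold at 3 days (log2FC −1.46, SE 0.20, edgeR adjusted p = 0.000204) and 2.22-fold at 6 days (log2FC −1.15, SE 0.20, edgeR adjusted p = 0.00103). It was the only one of the 10 called higher in MetaICM than in control, at a log2FC of 0.61 (SE 0.18, edgeR adjusted p = 0.0274). That call was near the cutoff and the 2 control libraries differ 1.56-fold. Leaving out control replicate 2 gave a log2FC of 0.35 and leaving out control replicate 1 gave 0.98, and the edgeR adjusted p was 0.0703 without MetaICM replicate 1 and 0.118 without MetaICM replicate 2.

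Enzymes of amino acid synthesis make up the next group. PSAT1, the aminotransferase of the serine pathway, lies on chromosome 9 from 80912041 to 80945009 and had 148 and 156 CPM in control. ICM libraries held 32.5 and 29.2 CPM at 3 days and 38.1 and 32.1 CPM at 6 days, and MetaICM libraries 101 and 109 CPM. Control, MetaICM and ICM libraries formed 3 ranges, in that order, that did not overlap. PSAT1 fell 4.95-fold at 3 days (log2FC −2.31, SE 0.13, edgeR adjusted p = 1.24e-07), the largest change among the 10 genes against control, and 4.36-fold at 6 days (log2FC −2.12, SE 0.13, edgeR adjusted p = 6.76e-07). In MetaICM, the log2FC of −0.55 had an edgeR adjusted p of 0.00558 and did not reach the cutoff of 0.6.

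PHGDH, which catalyses the first step of serine synthesis from a glycolytic intermediate, behaved much as PSAT1 did in its order of libraries. It lies on chromosome 1 from 120254557 to 120286838 and had 166 and 151 CPM in control, 49.3 and 44.5 CPM at 3 days, 43.4 and 46.3 CPM at 6 days, and 110 and 123 CPM in MetaICM. Control libraries were highest, MetaICM libraries came next and the ICM libraries were lowest, with no overlap between these levels. The falls were 3.40-fold at 3 days (log2FC −1.77, SE 0.13, edgeR adjusted p = 8.26e-07) and 3.57-fold at 6 days (log2FC −1.84, SE 0.11, edgeR adjusted p = 9.1e-07). In MetaICM the log2FC was −0.47 (edgeR adjusted p = 0.0126), again short of the cutoff.

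ASNS, which makes asparagine from aspartate and glutamine, was the least well measured of the 10. It lies on chromosome 7 from 97480989 to 97557753, and 2247 of its 3326 exon bases are shared with the readthrough gene CZ1P-ASNS on the same strand, so that only 32.4% of its exon bases could receive counts. Its counts were 194 and 47 in control, 54 and 21 at 3 days, 37 and 34 at 6 days, and 118 and 95 in MetaICM. As levels these were 11.5 and 3.85 CPM in control, 2.51 and 1.40 CPM at 3 days, 1.99 and 1.81 CPM at 6 days, and 5.86 and 4.15 CPM in MetaICM. Every ICM library was below every other library, and the 2 control libraries differed 3.00-fold. The log2FC was −1.97 at 3 days (SE 0.44, edgeR adjusted p = 0.00579) and −2.06 at 6 days (SE 0.43, edgeR adjusted p = 0.00341). Without control replicate 1 these values were −0.96 and −1.05, still past the cutoffs, and in MetaICM the log2FC of −0.68 (edgeR adjusted p = 0.213) became 0.35 without that library. It was −1.22 without control replicate 2 (edgeR adjusted p = 9.96e-08) and −0.66 with all genes that had a count kept in the fit (edgeR adjusted p = 0.00923), both past the cutoffs.

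SLC7A5 and SLC3A2 encode the light and the heavy chain of the same transporter, which brings leucine and other large neutral amino acids into the cell. SLC7A5, on chromosome 16 from 87863629 to 87903113, had 222 and 147 CPM in control. It had 70.7 and 53.4 CPM at 3 days, 59.9 and 54.9 CPM at 6 days, and 118 and 125 CPM in MetaICM. As in PSAT1 and PHGDH, the levels were ordered from control over MetaICM to ICM without overlap. The light chain fell 2.98-fold at 3 days (log2FC −1.58, SE 0.19, edgeR adjusted p = 5.94e-05) and 3.24-fold at 6 days (log2FC −1.69, SE 0.17, edgeR adjusted p = 2.97e-05). In MetaICM it was lower by a log2FC of −0.62 (SE 0.16, edgeR adjusted p = 0.0202), a call close to the cutoff. It was lost with scaling to library totals (−0.59), with all genes that had a count kept in the fit (−0.59) and when control replicate 1 (−0.29), MetaICM replicate 1 (−0.55, edgeR adjusted p = 0.113) or MetaICM replicate 2 (−0.64, edgeR adjusted p = 0.0809) was left out. A near copy of the gene, SLC7A5P2, received 592 to 1203 counts, and pairs that fitted both were not counted.

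SLC3A2, on chromosome 11 from 62623581 to 62656332, did not follow its partner. It had 288 and 216 CPM in control, 279 and 243 CPM at 3 days, 337 and 355 CPM at 6 days, and 206 and 211 CPM in MetaICM. The 6-day libraries were the highest and the MetaICM libraries the lowest of the 8. At 3 days the log2FC was 0.05 (95% interval −0.27 to 0.36, edgeR adjusted p = 0.848), while SLC7A5 had an interval of −1.98 to −1.17. At 6 days it was 0.45 (edgeR adjusted p = 0.022), under the cutoff, which it passed without control replicate 1 (0.65). The heavy chain also pairs with other light chains, among them SLC7A11, the cystine transporter described further on.

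**Figure D2:**
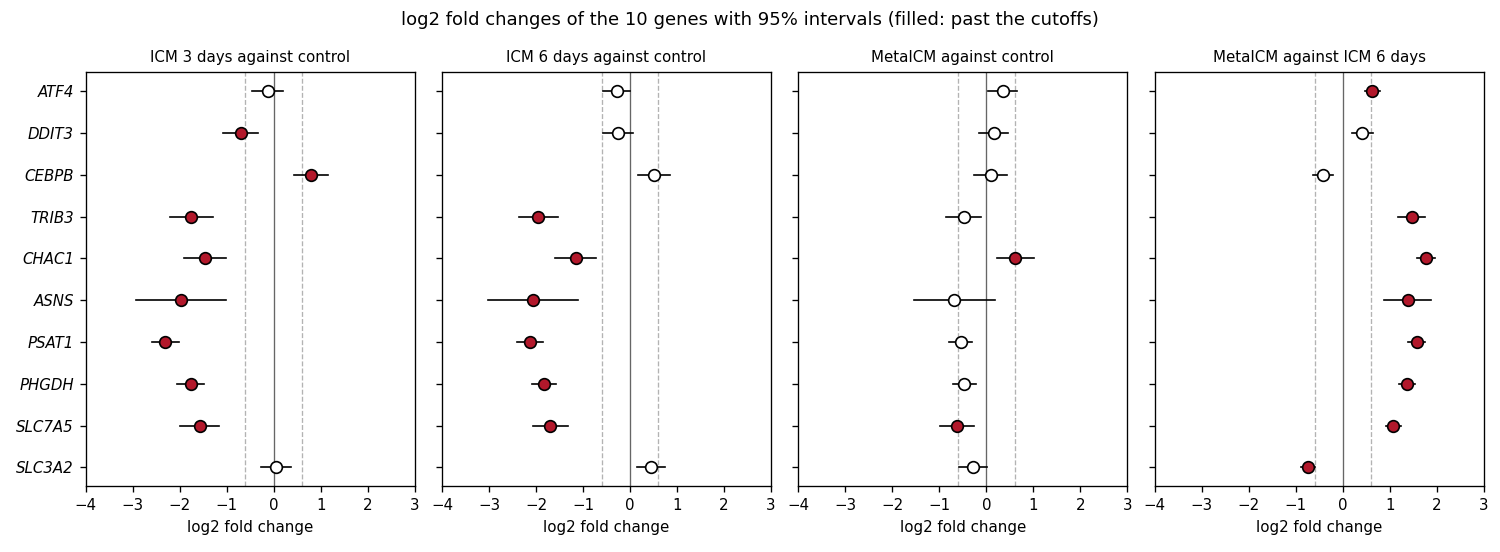
log2 fold change of each of the 10 genes with its 95% interval in 4 comparisons, filled where the gene passed the cutoffs of adjusted p under 0.05 and absolute log2FC over 0.6 (dashed lines). The 6 genes from TRIB3 to SLC7A5 lie left of −1 after 3 and 6 days of ICM and right of 1 in MetaICM against 6 days. Against control, ATF4 lies at −0.13, −0.28 and 0.35 and does not pass the cutoffs. The ASNS intervals are the widest.

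The 3-day and the 6-day libraries were compared directly to ask whether the response moved on with time. In edgeR, 0 of the 10 genes were called higher, against 3.53% of all genes tested, and 0 lower, against 4.54%. DESeq2 also called 0, and 3 genes had an unadjusted edgeR p under 0.05. These were SLC3A2 (log2FC 0.40, edgeR adjusted p = 0.00388), DDIT3 (0.44, edgeR adjusted p = 0.0394) and CEBPB (−0.28, edgeR adjusted p = 0.0988). For the genes that fell at 3 days by the most, the intervals of the further change were −0.07 to 0.42 for PSAT1, −0.29 to 0.14 for PHGDH, −0.37 to 0.12 for SLC7A5 and −0.61 to 0.19 for TRIB3. Thus further changes of a log2FC above 0.42 or below −0.61 lay outside all 4 intervals. The interval for ASNS, from −0.77 to 0.59, was wider.

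MetaICM was set against 6 days of ICM, a comparison that does not use the control libraries. Of the 10 genes, 7 were higher in MetaICM, against 15.7% of all genes tested, and SLC3A2 was lower, 1 of 10 against 12.0%. The median log2FC of the 10 was 1.22, against 0.0069 over all genes. CHAC1 was 3.41-fold higher (log2FC 1.77, SE 0.09, edgeR adjusted p = 1.12e-12), PSAT1 2.98-fold (1.58, edgeR adjusted p = 1.78e-12) and TRIB3 2.77-fold (1.47, edgeR adjusted p = 1.14e-08). ASNS was 2.61-fold, PHGDH 2.58-fold and SLC7A5 2.11-fold higher, with log2FC of 1.38, 1.37 and 1.08. ATF4 itself was 1.55-fold higher (log2FC 0.63, SE 0.08, edgeR adjusted p = 1.01e-06), just past the cutoff, and lay under it at 0.59 without 6-day replicate 1 and at 0.51 without MetaICM replicate 2. SLC3A2 was 1.66-fold lower (log2FC −0.74, SE 0.07, edgeR adjusted p = 2.17e-08). DDIT3 (log2FC 0.42) and CEBPB (−0.42) had edgeR adjusted p of 0.0032 and 0.00171 and did not reach the cutoff.

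Against 3 days of ICM, 7 of the 10 genes were higher in MetaICM, where 13.1% of all genes tested were, and CEBPB was lower, 1 of 10 against 10.3%. CHAC1 was 4.22-fold higher (log2FC 2.08, SE 0.11, edgeR adjusted p = 1.68e-09) and PSAT1 3.39-fold (log2FC 1.76, SE 0.09, edgeR adjusted p = 2.21e-09). DDIT3 passed here with a log2FC of 0.86 (SE 0.13, edgeR adjusted p = 0.000107), and ATF4 at 0.48 (edgeR adjusted p = 0.00208) did not. CEBPB was lower by a log2FC of −0.69 (SE 0.11, edgeR adjusted p = 0.000209). The other 4 genes called higher were TRIB3 at 1.27, ASNS and PHGDH at 1.30 each and SLC7A5 at 0.96. Both MetaICM comparisons use the same MetaICM libraries.

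Levels of different genes were compared only per length, as the mean CPM per kb of exon bases not shared with another gene. All bases of SLC7A5 were taken as countable, although pairs that also fitted SLC7A5P2 were not counted, so that its values per kb may be too low. In control, SLC3A2 was highest at 91.4 CPM per kb, followed by PHGDH at 85.0, ATF4 at 71.9, PSAT1 at 68.8, SLC7A5 at 40.4 and CHAC1 at 20.3 CPM per kb. DDIT3 had 16.4, CEBPB 10.1, TRIB3 8.42 and ASNS 7.14 CPM per kb. After 6 days of ICM the order at the top was SLC3A2 at 125 CPM per kb, ATF4 at 59.6 and PHGDH at 24.0, and TRIB3 at 2.20 and ASNS at 1.76 CPM per kb were at the bottom. The transporter's chains had 91.4 and 40.4 CPM per kb in control and 125 and 12.6 CPM per kb after 6 days of ICM. In MetaICM, ATF4 led at 92.4 CPM per kb, ahead of SLC3A2 at 75.6 and PHGDH at 62.3.

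**Figure D3:**
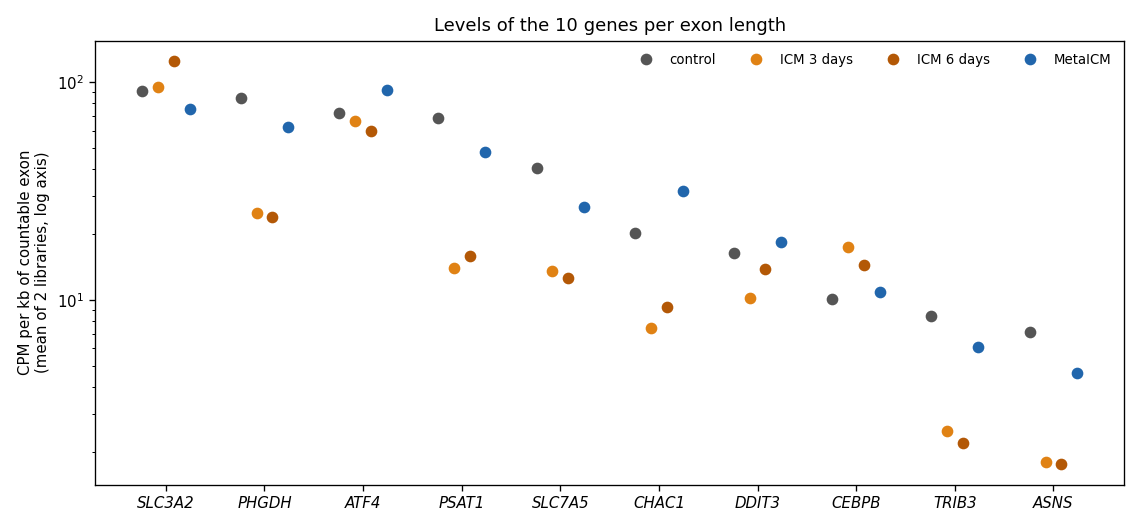
Mean level of the 2 libraries of each condition in CPM per kb of exon not shared with another gene (labelled countable, log axis) for the 10 genes, ordered by their control level. PHGDH, PSAT1, SLC7A5, TRIB3 and ASNS have low ICM points apart from control and MetaICM, whereas the 4 points of ATF4 span 59.6 to 92.4 and those of SLC3A2 75.6 to 125 CPM per kb.

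Among themselves, the genes were compared by the root mean square difference of their 3 log2FC against control. TRIB3 and PHGDH were most alike (0.0708), followed by PHGDH and SLC7A5 (0.162), while CEBPB and PSAT1 were the least alike (2.38). The mean profile of the 10 genes was −1.08, −1.04 and −0.19 at 3 days, 6 days and in MetaICM. It averages over log2FC that ran at 3 days from −2.31 for PSAT1 to 0.79 for CEBPB. Likeness to the mean therefore need not be likeness to any of the 10. Of all other genes with enough counts, PTN was nearest to this mean, with a difference of 0.0628. AARS1, the alanyl-tRNA synthetase, was next with 0.0673. PRICKLE1 (0.0741), HAUS7 (0.0755) and H2AZ1 (0.0770) came after them. All of these distances use the same control libraries.

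A list of 60 further genes of the pathway and of the related unfolded protein response was followed in the same fits. It was chosen with earlier results of these data known, so that its counts may reflect the choice. In the comparisons with control, 59 of the genes had enough counts. Of these, 25 were lower and 5 higher after 3 days of ICM, 21 lower and 8 higher after 6 days, and 6 lower and 2 higher in MetaICM. The shares over all genes tested, given above, were 13.2% lower and 8.85% higher at 3 days, 17.2% and 13.3% at 6 days, and 8.99% and 7.41% in MetaICM, so that the counts higher at 3 and 6 days and lower in MetaICM were near the background. The median log2FC of the list was −0.44, −0.06 and −0.07 in the 3 comparisons. Against 6 days of ICM, 20 of 59 were higher and 9 lower in MetaICM, where 15.7% and 12.0% of all genes tested were. Against 3 days of ICM, 23 of 59 were higher and 5 lower, where 13.1% and 10.3% were. The same element as above stood in the 1000 bases before the first exon of 19 of the 60 genes (31.7%). Over all genes with such a window the share was 12.7%. The limits given above for the element hold here too.

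Enzymes that carry serine into glycine and one-carbon units, and other amino acid enzymes, were lower in part. At 3 days 5 of 9 passed, namely MTHFD2, ALDH1L2, PSPH, PYCR1 and SHMT2, and at 6 days these without PYCR1, where 13.2% and 17.2% of all genes tested were lower. MTHFD2, a mitochondrial folate enzyme, had log2FC of −1.67 and −1.52 at the 2 times, PSPH, which completes serine synthesis, −1.29 and −1.28, and SHMT2, which makes glycine from serine, −0.66 and −0.78. In MetaICM, ALDH1L2 was lower than control at −0.77 (edgeR adjusted p = 0.00169) and CTH, which makes cysteine, at −1.20 (edgeR adjusted p = 0.0033), and CTH was higher at 6 than at 3 days by 1.13 (edgeR adjusted p = 0.000371). Its levels were 7.02 and 6.80 CPM in control, 4.65 and 4.19 at 3 days, 11.0 and 8.60 at 6 days, and 3.03 and 3.06 CPM in MetaICM.

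The other transporters went in opposite directions, with SLC7A1, SLC1A4, SLC6A9 and SLC43A1 lower at 3 days and SLC7A11 higher among the 7 tested, against 13.2% lower and 8.85% higher over all genes tested. SLC7A1, a carrier of arginine and lysine, had 220 and 215 CPM in control, 63.4 and 62.2 CPM at 3 days, 59.9 and 58.7 CPM at 6 days, and 109 and 110 CPM in MetaICM, with log2FC of −1.80, −1.89 and −1.01 against control, all called. SLC1A4, a carrier of neutral amino acids such as serine, fell by a log2FC of 2.07 at 3 days and by 1.87 at 6 days (edgeR adjusted p = 4.48e-07 and 2.47e-06). SLC7A11, the cystine carrier that pairs with SLC3A2, rose from 845 and 785 CPM in control to 1627 and 1719 CPM at 3 days and 2246 and 2261 CPM at 6 days, and had 529 and 503 CPM in MetaICM, where it was lower than in control (log2FC −0.68, edgeR adjusted p = 0.00331). Its log2FC was 1.03 at 3 days (edgeR adjusted p = 9.46e-05), 1.45 at 6 days (edgeR adjusted p = 5.44e-06) and −2.13 in MetaICM against 6 days (edgeR adjusted p = 5.62e-15). SLC38A2, a carrier of small neutral amino acids such as alanine, had log2FC of 0.56 at 3 days and 0.59 at 6 days (edgeR adjusted p = 0.00805 and 0.00352), just under the cutoff. SLC1A5, a glutamine carrier, had 0.34 at 6 days (edgeR adjusted p = 0.0313). SLC7A11, SLC1A5 and SLC3A2 were each highest in the 6-day and lowest in the MetaICM libraries. In MetaICM against control 3 of the 7 were lower, namely SLC7A1, SLC7A11 and SLC6A9, against 8.99% of all genes tested. The log2FC of SLC6A9 there was −0.93 (edgeR adjusted p = 0.00174).

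Of 12 cytosolic tRNA synthetases, 6 were lower at 3 days and the same 6 at 6 days, namely AARS1, CARS1, GARS1, MARS1, WARS1 and YARS1, against 13.2% and 17.2% of all genes tested. In MetaICM against control 0 were called by edgeR or DESeq2, where edgeR called 8.99% of all genes tested lower and 7.41% higher. Of the 12, 1 had an unadjusted edgeR p under 0.05. AARS1 had log2FC of −1.16 and −0.96 and WARS1, the tryptophanyl enzyme, −1.45 and −1.33 at 3 and 6 days. Against 6 days of ICM, the same genes without GARS1 were higher in MetaICM, 5 of the 12 against 15.7% of all genes tested.

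Feedback, growth and secreted factors were split. At 3 days 4 of 8 tested were lower, namely ADM2, DDIT4, EIF4EBP1 and SESN2, and 2 were higher. Over all genes tested, 13.2% were lower and 8.85% higher. At 6 days the same 4 were lower and 3 were higher, against 17.2% and 13.3%. SESN2 had log2FC of −0.66 at 3 days and −0.64 at 6 days (edgeR adjusted p = 0.00298 and 0.00192). ADM2, a peptide hormone, had 10.4 and 9.18 CPM in control, 0.883 and 0.332 CPM at 3 days, 0.323 and 0.212 CPM at 6 days, and 4.42 and 5.38 CPM in MetaICM. It fell 15.1-fold at 3 days and 36.0-fold at 6 days (edgeR adjusted p = 4.98e-06 and 8.76e-07), the steepest fall of the list, with 19 and 5 counts at 3 days and 6 and 4 counts at 6 days. The 3-day log2FC of −3.92 was −4.85 without 3-day replicate 1 and −3.47 without 3-day replicate 2. In MetaICM, ADM2 was 2.02-fold lower than control (log2FC −1.02, edgeR adjusted p = 0.00488), a call lost without MetaICM replicate 1 (edgeR adjusted p = 0.0637). EIF4EBP1, which restrains cap-dependent translation, had log2FC of −1.49 at 3 days and −1.84 at 6 days (edgeR adjusted p = 0.000644 and 3.7e-05). DDIT4, an inhibitor of mTORC1 signalling, had −1.84 at 3 days and −1.13 at 6 days (edgeR adjusted p = 2.8e-05 and 0.00113). VEGFA, an angiogenic growth factor, had risen at 3 days by 0.94 (edgeR adjusted p = 0.000172) and had 0.53 at 6 days (edgeR adjusted p = 0.00404), under the cutoff. STC2, a secreted glycoprotein, rose between 3 and 6 days by 0.97 (edgeR adjusted p = 1.65e-07). At 6 days STC2 was higher than control by 1.09 (edgeR adjusted p = 2.56e-05). GDF15, a stress cytokine, had 49.3 and 11.4 CPM in control, 97.2 and 70.0 CPM at 3 days, 108 and 113 CPM at 6 days, and 30.2 and 36.7 CPM in MetaICM. Its control libraries differed 4.33-fold, and its rise at 3 days (log2FC 1.44, edgeR adjusted p = 0.0227) and at 6 days (1.83, edgeR adjusted p = 0.00652) was not called by DESeq2 (adjusted p = 0.301 and 0.113). Without control replicate 1 the log2FC was 2.86 and 3.25, and without control replicate 2 it was 0.74 and 1.16. PPP1R15A, the subunit that directs dephosphorylation of eIF2, was called higher than control at 6 days at 0.78 (edgeR adjusted p = 0.0157). That call was not made at an adjusted p of 0.01. DESeq2 called 1 gene of the group higher at 6 days, where edgeR called GDF15, PPP1R15A and STC2. PPP1R15A was also called higher in MetaICM than in control at 0.71 (edgeR adjusted p = 0.0334), but not without control replicate 2 (0.35) or MetaICM replicate 2. MetaICM against 6 days gave −0.075 (edgeR adjusted p = 0.46), and the PPP1R15A control libraries differed 1.84-fold.

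The other regulators of the list also went both ways. ATF3, a repressor and early stress factor, had 11.8 and 8.77 CPM in control, 40.6 and 30.8 CPM at 3 days, 46.0 and 48.5 CPM at 6 days, and 9.92 and 11.9 CPM in MetaICM. It rose 3.44-fold and 4.52-fold at 3 and 6 days (edgeR adjusted p = 2.52e-05 and 2.76e-06). JDP2, a repressor of the same family, and NUPR1, a stress-induced chromatin protein, were lower, with log2FC of −0.73 and −1.32 at 3 days and −1.68 and −1.57 at 6 days. Both were higher in MetaICM than at 6 days, by 1.52 and 1.70 (edgeR adjusted p = 3.9e-09 and 1.55e-10).

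The kinases that phosphorylate eIF2 showed small differences. At 3 days 0 of 6 genes in the group of eIF2 kinases and translation control were called by edgeR or DESeq2. Over all genes tested, edgeR called 13.2% lower and 8.85% higher, so that 0 of 6 was near the background. Of the 6, 4 had an unadjusted edgeR p under 0.05. EIF2AK1, the heme-regulated kinase, had a log2FC of 0.47 and EIF2AK2, which senses double-stranded RNA, 0.36 at 3 days (edgeR adjusted p = 0.0195 and 0.049), and EIF2AK4, the amino acid sensor GCN2, had 0.12 (95% interval −0.14 to 0.39, edgeR adjusted p = 0.491). EIF2AK3, the kinase PERK of the endoplasmic reticulum, had 0.15 at 3 days and was higher at 6 days, at 0.62 (SE 0.14, edgeR adjusted p = 0.00473), a call lost without control replicate 1 or 6-day replicate 1. In MetaICM the log2FC of EIF2AK4 against control was 0.52 (edgeR adjusted p = 0.00698), under the cutoff, and those of EIF2AK1, EIF2AK2 and EIF2AK3 were 0.13, −0.17 and 0.22. The RNA level of a kinase does not measure its activity.

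Genes of the ATF6 and XBP1 arm of the unfolded protein response differed between the times. At 3 days HSPA5, HERPUD1 and XBP1 were lower and PDIA4 was higher among the 12, against 13.2% lower and 8.85% higher over all genes tested. At 6 days HERPUD1 was lower and DNAJB9 and PDIA4 were higher, against 17.2% and 13.3%. The counts higher at both times and lower at 6 days were near or below these shares. HSPA5, the chaperone BiP, had 585 and 641 CPM in control, 264 and 275 CPM at 3 days, 635 and 658 CPM at 6 days, and 586 and 596 CPM in MetaICM. It was 2.39-fold higher at 6 than at 3 days (log2FC 1.26, SE 0.09, edgeR adjusted p = 7.78e-09). DNAJB9, a cochaperone of BiP, was 2.76-fold higher at 6 than at 3 days (edgeR adjusted p = 1.11e-06) and 2.88-fold higher than in control (edgeR adjusted p = 1.96e-05). In MetaICM 1 of the 12 was higher than control, near the 7.41% over all genes tested. It was SDF2L1, at a log2FC of 1.38 (edgeR adjusted p = 0.0104). SDF2L1 went from 2.32 and 1.07 CPM in control to 4.61 and 4.68 CPM, with 39 and 13 counts in control. Leaving out control replicate 1 gave 2.10, and leaving out control replicate 2 gave 0.99. Between 3 and 6 days, 8 of the 58 genes of the list that could be tested were higher, against 3.53% of all genes tested, and 1, JDP2, was lower, against 4.54%.

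**Figure D4:**
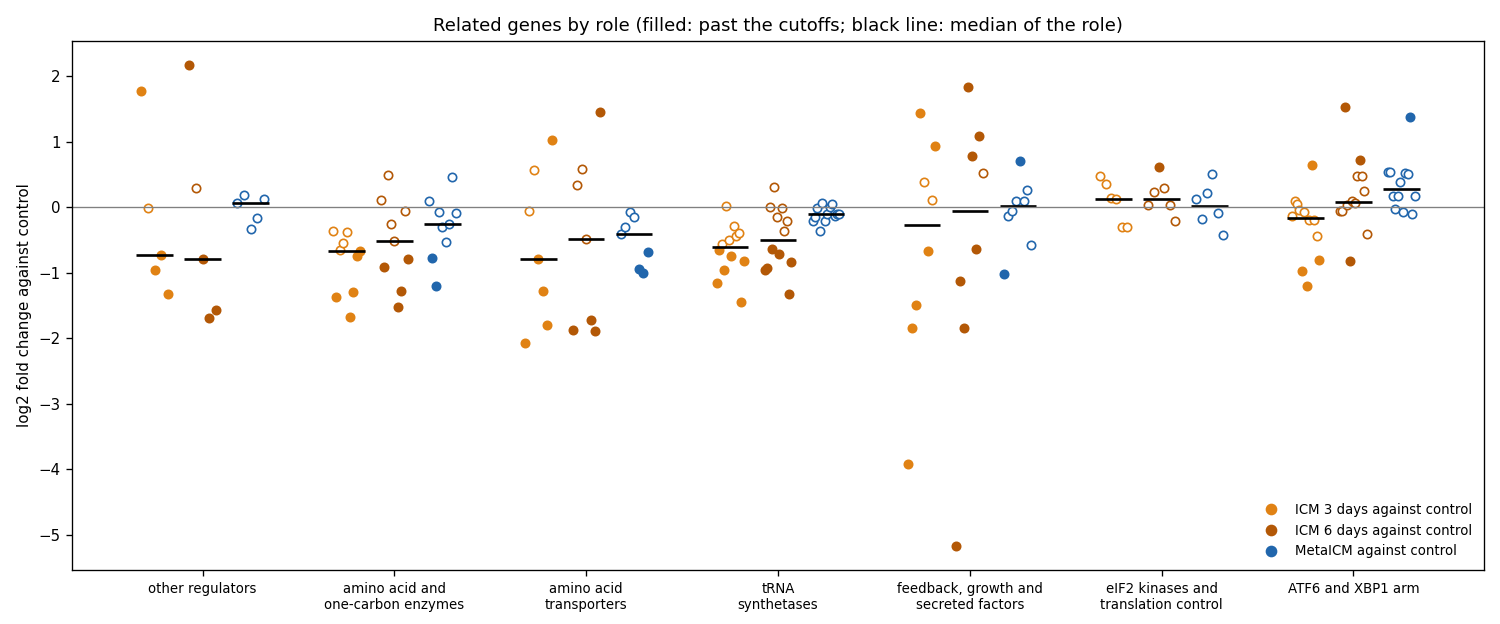
log2 fold change against control of the 59 tested related genes (points) by role and comparison, filled where the gene passed the cutoffs, with the median of each role as a black line. Amino acid enzymes and tRNA synthetases lie mostly below 0 after ICM, the eIF2 kinase group lies near 0, and transporters, regulators and secreted factors hold genes far on both sides.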

How the data were processed

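The submitters' processing notes name GRCh37 and STAR 2.6.0c. The authors deposited, for each of 8 libraries, exon-level read pair counts summed per RefSeq gene by featureCounts 1.6.3, without normalization. Per the file headers, pairs were counted without regard to strand, both ends had to map, and pairs on several genes or several places were not counted. The labels describe poly(A) selection from lysed cells, while the study calls the assay nascent, and exon counts can hold mature RNA. How far they do was not tested.

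Conditions were compared in pairs (4 libraries per fit) with edgeR 4.0.16 in R 4.3.3, with TMM factors, filterByExpr at a count minimum of 10, the quasi-likelihood test and Benjamini-Hochberg adjustment over all genes tested. Standard errors and 95% intervals come from the same fit. Cutoffs were an adjusted p of 0.05 and an absolute log2FC of 0.6. Alternatives were DESeq2 1.42.0 (test or size factors), library totals, 2 other filters, a joint fit of the 8 libraries, a block for the replicate number, an adjusted p of 0.01, and each library left out. The fits were tested on simulated counts.

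The 10 genes, the 60 related genes and the fibroblast and other markers were chosen with earlier results of these data known. Related genes could be named per comparison if called without overlap of libraries, up to 4 with the largest log2FC in each direction, besides EIF2AK1 to EIF2AK4. Not every gene that met this rule was described in every comparison, and none was for MetaICM against 3 days of ICM. Other related genes were named after their values were seen, as examples of their group (MTHFD2 and AARS1, among others). The genes nearest to the mean profile had at least 100 counts per library on average. Start-site sequences are from the GRCh37 genome and RefSeq. Python 3.11.15, numpy 2.4.6, pandas 2.3.3 and matplotlib 3.10.9 were used for counts and plots.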

Additional observations from a re-analysis of the deposited data

How the results depend on the processing

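Of 720 recomputed log2FC of the 10 genes, 690 kept their direction and side of the cutoffs. Those that changed direction did so when 1 library was left out and were not called in the first place. The ranges over left-out libraries were, at 3 days against control, −0.31 to 0.060 for ATF4 and −0.16 to 0.26 for SLC3A2, in MetaICM against control −1.22 to 0.35 for ASNS and −0.049 to 0.27 for CEBPB, and at 6 against 3 days −0.30 to 0.0042 for ATF4, −0.38 to 0.00011 for TRIB3, −0.40 to 0.42 for ASNS and −0.30 to 0.084 for SLC7A5. A library left alone in its condition was assumed to vary like the others.

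Counts of calls moved by over 1.5 times as follows. At 3 days, 3 related genes were higher at an adjusted p of 0.01 (5 at 0.05). In MetaICM against control, 0 of the 10 genes were lower with library totals, with the replicate block or at an adjusted p of 0.01 (1 otherwise), 0 were higher at 0.01 (1 otherwise) and 0 related genes were higher at 0.01 (2 otherwise). With libraries left out, 0 to 1 of the 10 were higher and 0 to 3 lower in MetaICM against control, with 1 to 8 related genes higher. At 6 days 0 to 2 of the 10 were higher (2 without control replicate 1), and at 6 against 3 days 1 to 2 related genes were lower. With all genes that had a count kept in the fit, the 1 gene lower in MetaICM against control was ASNS (−0.66) instead of SLC7A5 (−0.59). The cause of these shifts was not tested.

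The labels number the libraries 1 and 2 without saying that a number pairs them. Over 10944 genes, deviations of same-numbered libraries correlated at 0.386 between control and 3 days of ICM. In the other pairs of conditions the values lay between −0.235 and 0.195. The numbers were not taken as a pairing, although control and 3-day libraries of the same number may share some structure. With the replicate block, SLC7A5 in MetaICM against control had a log2FC of −0.59, under the cutoff, and no other call of the 10 genes changed.

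Scaling to library totals moved the median of all genes by at most 0.0765. With 2 libraries per condition, outlying libraries could not be tested, and small differences in ASNS and ADM2 were not detectable at their counts.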
